A study of Homo sapiens with 21 samples.

Results

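Mammospheres of BT-549/tet-MUC1shRNA cells in which MUC1 had been silenced were compared with BT-549 cells grown in 2D, to see which features of mammosphere growth remained after silencing, which returned to the 2D level and which went past it. The members were taken by their group labels and were 6 of the 21 bulk RNA-seq libraries of the study, 3 of DOX-treated mammospheres and 3 of 2D cells. Another 6 libraries, 3 of vehicle-treated tet-MUC1shRNA mammospheres and 3 of untransduced 3D cells, gave the mammosphere level before silencing. BT-549 is an established, BRCA1 wild-type triple-negative breast cancer (TNBC) cell line. The 2D cells grew as monolayers in RPMI1640 with serum and insulin. All mammospheres grew in ultra-low attachment plates in a mammosphere medium and were taken at serial passage 6. The tet-MUC1shRNA line carried a single MUC1 shRNA under a DOX-inducible promoter in a lentiviral vector and had been selected with puromycin. It received 0.1% DMSO as the vehicle, or 500 ng/ml DOX for 10 days, which switches the shRNA on. No 2D culture of the tet line and no mammospheres with DOX and a control shRNA are among the libraries analysed here. In DOX-treated against 2D cells, growth format, medium, transduction, selection, DOX and silencing therefore cannot be told apart, and the levels in vehicle-treated mammospheres, and for the main genes also in untransduced ones, are given as a reference. Depth was 43861798 to 57993265 counts in the 2D libraries and 39652897 to 67725005 in those of DOX-treated mammospheres, with the other 6 libraries between 41132120 and 67272436. The replicates were parallel cultures of 1 line, so p-values measure the spread between cultures.

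MUC1 encodes a transmembrane mucin that is cleaved into an N-terminal and a C-terminal (MUC1-C) subunit, and MUC1-C signals from the membrane to the nucleus. Mammosphere culture selects cells that survive without attachment and is used to enrich breast cancer stem cells. The pathways described here include glycolysis, which converts glucose to pyruvate and lactate, and the hypoxia response, in which HIF factors bind DNA cores such as ACGTG and switch on glucose transporters, glycolytic enzymes, angiogenic factors and carbonic anhydrases. They also include matrix and actin genes, which attached cells on plastic usually express strongly.

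MUC1 (ENSG00000185499.16, chr1:155185824-155192916 of GRCh38) was lower in the silenced mammospheres than in both the mammospheres before silencing and the 2D cells. It was counted at 52.5, 56.7 and 54.7 CPM (counts-per-million values, scaled over these 12 libraries) in 2D cells. The 3D libraries had 219, 225 and 182 CPM. The tet-MUC1shRNA mammospheres had 101, 82.4 and 85 CPM with vehicle and 19.7, 21.1 and 23.4 with DOX. Each group of 3 stood apart from the other 3 groups. Against 2D cells, the log2 fold change with DOX was -1.35 (standard error 0.08, adjusted p = 1.37e-12, edgeR's quasi-likelihood test with Benjamini-Hochberg adjustment). MYC, the transcription factor named by the study beside MUC1-C, was at 86.2 ± 6.12 CPM in 2D cells and 286 ± 10.2 with DOX (mean ± SD, n = 3), against 242 ± 9.26 with vehicle and 586 ± 22.1 in 3D cells. It was 1.73 above 2D on the log2 scale with DOX (standard error 0.06, adjusted p = 5.01e-18, edgeR's quasi-likelihood test).

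Most of what separated mammospheres from 2D cells was still there after MUC1 silencing. A gene was called changed where its absolute log2 fold change exceeded 1.5 and its adjusted p was below 0.1 (edgeR's quasi-likelihood test). Of 21434 genes tested, 5051 (23.6%) were called in DOX-treated mammospheres against 2D cells, 2769 higher (12.9%) and 2282 lower (10.6%). By the adjusted p alone, 35% of genes were higher and 35.2% lower. The libraries of these 2 groups did not overlap for 70.5% of all genes tested. Against the same 2D libraries, 5055 genes (23.6%) were called in vehicle-treated mammospheres, 11.5% of genes higher and 12% lower. In 3D cells 3739 (17.4%) were called, 8.13% higher and 9.31% lower. A mammosphere feature was defined as a gene called in the same direction in both of these comparisons. There were 2815 features, 1425 higher (6.65% of genes tested) and 1390 lower (6.49%) in mammospheres. A feature remained if it was called in the same direction with DOX, overshot if it was called in the opposite direction, and returned if the 95% interval of DOX minus 2D lay within 1 on the log2 scale and the gene moved against the feature between vehicle and DOX at an adjusted p below 0.1. All comparisons to 2D share the 2D libraries, so their agreement in direction is no separate evidence.

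By this rule 2195 features (78%) remained, 1210 of the higher ones (84.9%, or 5.65% of genes tested) and 985 of the lower ones (70.9%, or 4.6%). Returned features numbered 91 (3.23%), 41 of them higher (0.191% of genes tested) and 50 lower (0.233%) in mammospheres. Among the 41, 5 had no counts in any 2D or DOX-treated library, so that their interval has no width, and 86 of the 91 rest on counts. Overshoots were rare, 7 among the higher (0.0327% of genes tested) and 12 among the lower features (0.056%), together 0.675% of all features. The other 510 features (18.1%), 167 higher (0.779% of genes tested) and 343 lower (1.6%), met none of these definitions and are called in between. This class is a remainder, and some of its genes, such as BNIP3, passed the 2D level without being called. By the adjusted p alone, 142 of the 167 and 255 of the 343 moved against the feature between vehicle and DOX. Outside the features, 239 genes were new departures, within 1 of 2D on the log2 scale in both other mammosphere groups but called in the same direction against 2D and against vehicle with DOX. Of these, 160 were higher (0.746%) and 79 lower (0.369%) in the silenced mammospheres. Between vehicle and DOX, 2038 genes were called over the whole table (9.51%), 6.24% higher and 3.27% lower with DOX, and by the adjusted p alone 26.5% were higher and 28.1% lower. In bulk RNA, fewer cells of a type and less RNA per cell cannot be told apart.

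The remaining features had medians against 2D near those before silencing, though single genes moved. The 1210 higher ones had a median log2 fold change against 2D of 3.95 with vehicle, 3.55 in 3D cells and 4.01 with DOX. The 985 lower ones had medians of -3.29, -3.34 and -3.03. With DOX, 136 of the higher (11.2%) and 86 of the lower ones (8.73%) were called further from 2D than with vehicle, and 93 (7.69%) and 143 (14.5%) were called nearer to it, together a larger share than the 9.51% of all genes called between vehicle and DOX. By the adjusted p alone, 391 of the higher and 218 of the lower ones were further from 2D than with vehicle, and 324 and 289 were nearer. The returned features had median log2 fold changes of 2.2 with vehicle and 0.25 with DOX for the higher, and of -2.21 and -0.25 for the lower genes; these values chose the classes and are a description.

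**Figure D1:**
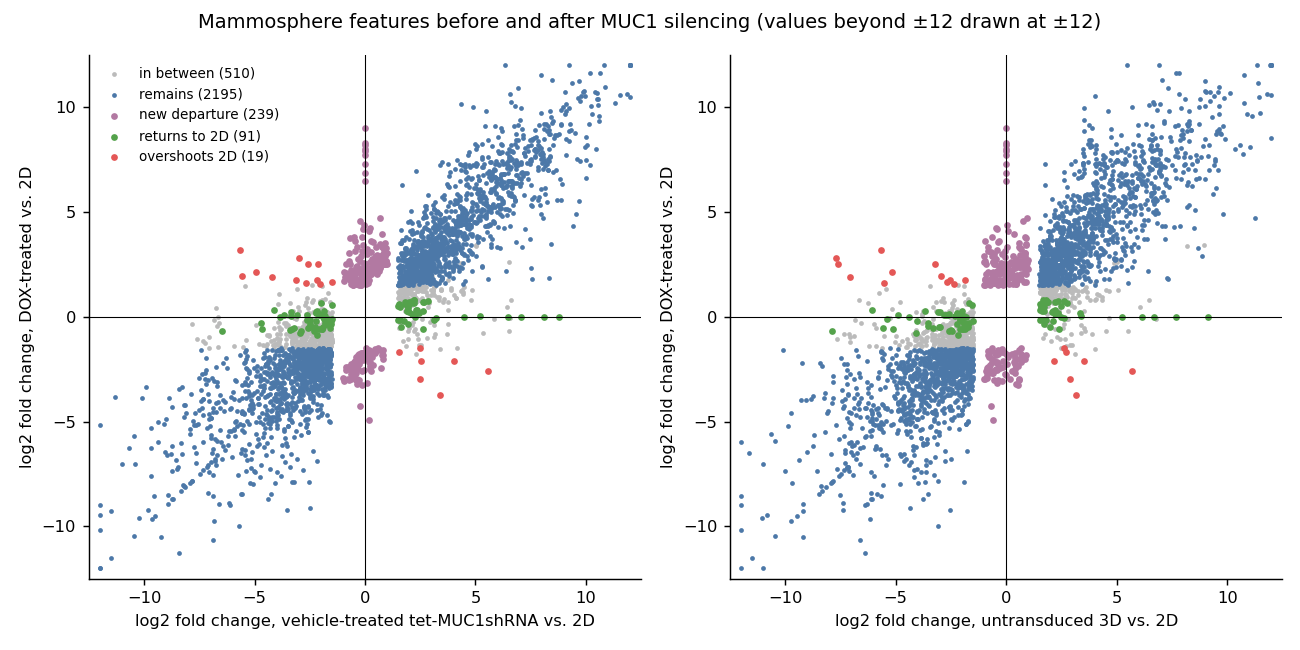
Log2 fold change against 2D cells in DOX-treated mammospheres (y axis) against that in vehicle-treated tet-MUC1shRNA mammospheres (left x axis) and in untransduced 3D cells (right x axis), 1 point per gene, for the 2815 features and 239 new departures. The 2195 remaining features lie in the upper right and lower left, the 91 returned ones along the horizontal zero line, the 19 overshoots in the other quadrants and the new departures along the vertical zero line; values beyond 12 are drawn at 12.

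**Figure D2:**
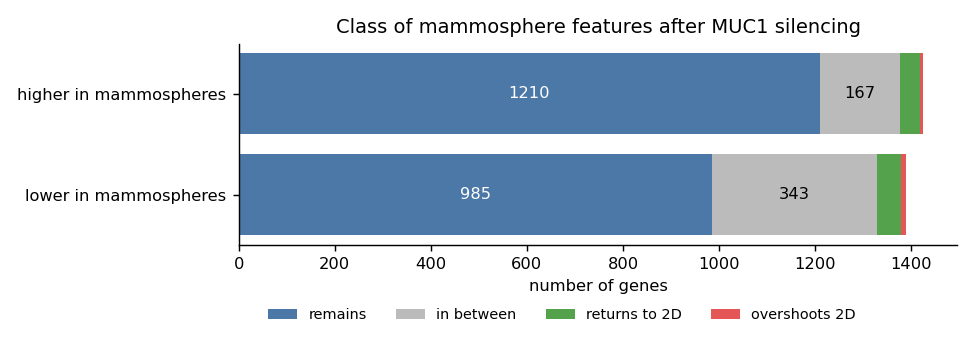
Number of mammosphere features (x axis) that remained, lay in between, returned or overshot after MUC1 silencing, with 1 bar for the 1425 genes higher and 1 for the 1390 genes lower in mammospheres than in 2D cells. The remaining class holds 1210 and 985 genes, and the in-between class 167 and 343.

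Among the higher features that remained, those with the largest changes were genes nearly silent in 2D cells and strongly expressed in every mammosphere library. FKBP5 (chr6:35573585-35728583), a co-chaperone of the glucocorticoid receptor and its textbook target, had 2 counts over the 3 2D libraries and 2460.2, 2448 and 2308 CPM with DOX, a ratio of 193000 (95% counting interval 53300 to 1590000). The vehicle-treated libraries had 2094, 2188 and 2313 CPM and the 3D libraries 3359, 3489.8 and 3535. No 2D library came near any mammosphere library. NOS2, the inducible nitric oxide synthase, had no count in 2D cells and 65.9, 69.1 and 65.5 CPM with DOX, at least 1190-fold higher against a floor of 3 counts per library. F3, which encodes tissue factor, and EREG, which encodes the EGFR ligand epiregulin, were likewise without a count in 2D cells, and with DOX they were at least 1150-fold and 1130-fold higher. Their DOX levels were 62.2, 71 and 58.5 CPM for F3 and 66.8, 62.2 and 62.9 for EREG, against 83.7, 72.6 and 83.9 and 72.7, 89.4 and 81.7 with vehicle.

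In all, 22 protein-coding genes were below 0.1 CPM in every 2D library and above 5 CPM in all 9 mammosphere libraries, a selection that places them in the remaining class. Besides those named, they include ZBTB16, a transcriptional repressor, ABLIM3, an actin-binding LIM protein, FABP4, a fatty acid-binding protein, XDH, which encodes xanthine dehydrogenase, and CSF3, which encodes the granulocyte growth factor G-CSF. The reverse pattern, above 5 CPM in 2D and below 0.1 in all 9, was found for OR2T8, OR2T33, CCDC3, CPA3 and HS6ST2. OR2T8, an olfactory receptor gene, had 166, 119 and 111 CPM in 2D cells and no count in any mammosphere library, at least 2470-fold lower with DOX. HS6ST2, a heparan sulfate sulfotransferase, was at 7.35, 6.49 and 6.97 CPM in 2D cells and at least 132-fold lower with DOX, and CPA3, a carboxypeptidase of mast cells, at 7.46, 5.21 and 5.1 CPM and at least 111-fold lower. CDH6 (chr5:31193686-31329146), which encodes K-cadherin, was also nearly lost, with 1044, 1014 and 1132 CPM in 2D cells and 0.141, 0.167 and 0 with DOX. Its 3D libraries had 0.334, 0.494 and 0.668 CPM and its vehicle libraries 0.104, 0 and 0, so 2D cells stood far above every mammosphere.

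Most glucocorticoid receptor targets were high in mammospheres and still called higher than 2D with DOX, though many were lower than with vehicle. Of the 10 receptor targets and regulators listed, 7 were features, 6 of them remained and 1 (ERRFI1) returned, a share near the 84.9% of all higher features that remained. Against 2D, 7 were called higher with DOX, beside 12.9% of all genes. Against vehicle 7 were lower and 2 higher at an adjusted p below 0.1, beside 28.1% and 26.5% of all genes. The median log2 fold change of the list was 3.78 with vehicle, 3.39 in 3D and 3.23 with DOX, beside -0.04, 0 and 0.01 over all genes tested. TSC22D3, which encodes the glucocorticoid-induced leucine zipper GILZ, was at 1.97, 2.24 and 1.7 CPM in 2D cells, 676, 599.6 and 540.4 with vehicle, 251, 266 and 238 with DOX and 263, 239 and 244 in 3D cells. DOX-treated libraries lay below the vehicle-treated ones and overlapped the 3D ones. The change with DOX was 7.0 against 2D (standard error 0.10, adjusted p = 2.56e-24) and -1.26 against vehicle (adjusted p = 4.14e-13, edgeR's quasi-likelihood test). ZBTB16 stood at 74.2 ± 5.52 CPM with DOX and 84 ± 8.14 with vehicle (mean ± SD, n = 3), and 2 counts in all were seen in 2D cells. PER1, a clock gene, was at 118 ± 2.92 CPM with DOX against 12.7 ± 1.44 in 2D and 224 ± 26.8 with vehicle. The receptor itself, NR3C1, was lower in all mammospheres, at 588 ± 26.5 CPM in 2D, 321 ± 8.35 with vehicle, 352 ± 6.35 in 3D cells and 326 ± 11 with DOX (-0.85 against 2D, adjusted p = 1.3e-13, edgeR's quasi-likelihood test), below the size threshold of a call. ERRFI1, a feedback inhibitor of EGFR, was the member that came back, with 207, 209 and 216 CPM in 2D, 1064, 909.8 and 947 with vehicle and 325, 363 and 309 with DOX. Growth medium differed between 2D cells and mammospheres, and its part in these values cannot be told apart from growth format.

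Interferon-stimulated genes stayed low, and 15 of 22 were lower still and 3 higher with DOX than with vehicle at an adjusted p below 0.1, beside 28.1% of all genes lower and 26.5% higher. Called at the size limit as well were 4 lower and 2 higher. All 12 features of this list of 22 tested genes were lower in mammospheres and all 12 remained, where 70.9% of all lower features did, and 15 of the 22 were called lower with DOX, against 10.6% of all genes. The list median was -2.08 with vehicle, -2.07 in 3D cells and -3.25 with DOX. MX1, an antiviral GTPase, had 5.33, 7.7 and 8.6 CPM in 2D, 0.883, 0.63 and 0.714 with vehicle and 0.248, 0.153 and 0.297 with DOX, so that the DOX libraries were the lowest (-1.72 against vehicle, standard error 0.31, adjusted p = 7.52e-05, edgeR's quasi-likelihood test). IFI44 was at 6.99, 13 and 12.8 CPM in 2D, 0.623, 0.233 and 0.618 with vehicle and 0.0354, 0.18 and 0.0913 with DOX. BST2, which encodes the virus-tethering protein tetherin, was at 1.25, 1.66 and 1.35 CPM in 2D and 0.104, 0.187 and 0.0772 with vehicle and had no count with DOX, at least 27.5-fold lower. The MHC class I list, whose products load and present peptides, did not follow as a whole. Beside 10.6% of all genes, 2 of its 11 were called lower with DOX than in 2D. These were NLRC5, the transactivator of class I genes (-2.32, adjusted p = 1.69e-09), and the immunoproteasome subunit PSMB9 (-1.58, adjusted p = 1.11e-05, edgeR's quasi-likelihood test). Within mammospheres NLRC5 moved the other way, from 0.415, 0.443 and 0.27 CPM with vehicle to 0.937, 1.24 and 1.58 with DOX, and was called higher (1.73, adjusted p = 1.53e-05, edgeR's quasi-likelihood test), with 2D at 5.73, 6.7 and 6.16. PSMB9 kept its class in 19 of 23 alternative settings and was no feature without 2D replicate 2, without 2D replicate 3 or without vehicle replicate 2. PSMB9 shares 5.21% of its exon bases with another annotated gene.

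Cytokine and NF-kB genes held 6 features among 20 tested, and all 6 remained, 4 higher and 2 lower, where 78% of all features did. Against vehicle, 9 of the 20 were higher and 3 lower with DOX at an adjusted p below 0.1, beside 26.5% and 28.1% of all genes, and 1 was called higher and 2 lower, beside 6.24% and 3.27%. CCL20, a chemokine for CCR6-bearing cells, was at 0.0672, 0.035 and 0.139 CPM in 2D and 9.6, 10.5 and 9.61 with DOX, within the range of the vehicle (9.48, 12.4 and 12.47) and 3D (9.11, 10.9 and 9.91) libraries. BIRC3, an inhibitor of apoptosis and NF-kB target, was at 45.2 ± 3.51 CPM with DOX against 3.52 ± 0.428 in 2D and 26.3 ± 2.16 with vehicle. CCL2, a monocyte chemokine, was lower in all mammospheres, at 18.4, 14.6 and 11.8 CPM in 2D, 0.883, 1.54 and 1.35 with vehicle, 2.72, 2.65 and 2.21 in 3D cells and 0.743, 0.735 and 0.822 with DOX.

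Extracellular matrix genes mostly stayed called against 2D in their mammosphere direction, while their levels moved both ways between vehicle and DOX. Of 27 collagens and matrix proteins, 16 were features, and 14 remained, 4 higher and 10 lower than in 2D, beside 78% of all features. Against vehicle, 10 of the 27 were higher and 12 lower with DOX at an adjusted p below 0.1, beside 26.5% and 28.1% of all genes, and 3 were called in each direction, beside 6.24% higher and 3.27% lower over all genes. COL3A1, a fibrillar collagen of soft connective tissue, was at 647, 858 and 923 CPM in 2D, 13, 11.1 and 13.6 with vehicle and 6.33, 9.14 and 7.9 with DOX. COL1A1, the main chain of type I collagen, was at 1027, 1119 and 1026 CPM in 2D and 231, 229 and 219 with DOX, above 164, 163 and 162 with vehicle and 61.9, 58.1 and 55.4 in 3D cells, yet -2.23 from 2D on the log2 scale (standard error 0.05). In the other direction FN1, which encodes fibronectin, was at 469.6, 444 and 453 CPM in 2D and 7289.7, 7118 and 7067 with DOX, beside 10956, 9877 and 9822 with vehicle and 6878, 7073 and 6398 in 3D cells. BGN, the proteoglycan biglycan, was further from 2D after silencing, at 0.0633 ± 0.0324 CPM with DOX against 0.471 ± 0.148 with vehicle and 9.21 ± 1.55 in 2D (mean ± SD, n = 3). COL11A1, a minor fibrillar collagen, had no count in 2D cells and 0.318, 0.194 and 0.183 CPM with DOX, at least 4.11-fold higher. It was called lower than with vehicle (2.8, 1.91 and 2.53 CPM, DOX minus vehicle -3.36 on the log2 scale), and the 3D libraries had 0.836, 1.42 and 0.792 CPM.

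A single matrix protein of the list returned to the 2D level, THBS1 (chr15:39581079-39599466), which encodes thrombospondin 1, a matrix protein that binds CD36 and CD47 and restrains angiogenesis. It was counted at 1593, 1429 and 1424 CPM in 2D, 128, 131 and 126 in 3D cells and 58.2, 50.2 and 61.9 with vehicle, and at 1247, 1219 and 1181 with DOX. The DOX libraries lay just below all 3 libraries of 2D cells and far above both other mammosphere groups. DOX minus 2D was -0.29 (95% interval -0.41 to -0.16) and DOX minus vehicle 4.42 (standard error 0.07, adjusted p = 4.27e-22, edgeR's quasi-likelihood test). VCAN, the proteoglycan versican, is not in the list and also returned within the margin, at 202.7 ± 0.929 CPM against 347 ± 23.4 in 2D, from 44.9 ± 2.39 with vehicle (mean ± SD, n = 3).

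Of 17 tested genes of the list of actin contractility genes and YAP targets, 7 were features. Of these, 6 remained, 1 higher and 5 lower in mammospheres, and CALD1 returned, a share of remaining features near the 78% over all features. The higher one was F3, described above. CALD1 (chr7:134744252-134970729), which encodes the actin-binding protein caldesmon, was at 102, 97.8 and 108 CPM in 2D, 4.87, 5.2 and 4.4 in 3D cells, 7.22, 6.72 and 7.39 with vehicle and 104, 98.2 and 100.4 with DOX. The DOX and 2D libraries overlapped, and DOX minus 2D was -0.03 (95% interval -0.15 to 0.10), a value whose sign turned under library-size scaling and other settings. DOX minus vehicle was 3.82 (standard error 0.07, adjusted p = 9.73e-21, edgeR's quasi-likelihood test). PALLD, the actin cross-linker palladin, which is not in the list, returned as well, at 128, 111 and 115 CPM in 2D, 16.3, 15.5 and 15.2 with vehicle and 74.4, 68.6 and 75 with DOX. TAGLN, the smooth muscle actin-binding transgelin, remained low at 1.72, 1.3 and 1.26 CPM with DOX against 15.5, 19.1 and 19 in 2D and 0.727, 0.49 and 0.444 with vehicle, and 38.1% of its exon bases overlap another gene. MYL9, a myosin regulatory light chain, was at 3.09, 4.25 and 3.85 CPM in 2D, 0.0519, 0.233 and 0.386 with vehicle and 0.141, 0.0555 and 0.0913 with DOX. Other lower features that returned were DKK1, a secreted WNT antagonist, with 23.6, 24.7 and 26.1 CPM in 2D, 2.21, 2.75 and 2.59 with vehicle and 16.8, 16.3 and 16.4 with DOX, and IDO1, the tryptophan-degrading enzyme, with 6.05, 8.71 and 9.78, 0.182, 0.28 and 0.463 and 5.76, 4.8 and 6.12. IDO1 was in the returned class in 17 of 23 alternative settings and lay in between in 4 of the fits with 1 library left out.

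Pregnancy-specific glycoprotein genes (PSG), secreted members of the CEA family made mainly by placenta, were lower in mammospheres and came back up with DOX. All 9 tested were called lower than 2D in both vehicle-treated and 3D cells, against 12% and 9.31% of all genes, and 8 were called higher with DOX than with vehicle, against 6.24%. Against 2D, 3 returned, 2 overshot, 3 lay in between and 1 remained, where 50 of all 1390 lower features returned, 12 overshot and 70.9% remained. PSG4, of the in-between class, was above 2D with DOX (1.34 on the log2 scale). PSG5 was at 21.8, 21.5 and 19.9 CPM in 2D, 0.208, 0.21 and 0.27 with vehicle and 14.7, 12.7 and 12.1 with DOX, and PSG1 at 11.2, 12 and 10.5, 0.909, 0.35 and 0.676 and 16.4, 14.2 and 12.2. PSG5 was in the returned class in 17 of 23 alternative settings and PSG1 in 21. These paralogs are nearly identical in sequence, so reads may have been divided among them and their single values are uncertain.

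Glycolysis genes were higher in mammospheres and moved towards 2D with DOX, without all reaching it. Of 21 genes for glucose uptake, glycolytic enzymes, lactate dehydrogenases and lactate transport, 10 were features, all higher in mammospheres, of which 4 returned, 3 remained and 3 lay in between. Over all 1425 higher features 2.88% returned, 84.9% remained and 11.7% lay in between. The median log2 fold change against 2D was 1.31 with vehicle, 1.37 in 3D cells and 0.25 with DOX, and 20 of the 21 were lower with DOX than with vehicle at an adjusted p below 0.1, as were 28.1% of all genes. With DOX against 2D, 3 were called higher and 1 lower, beside 12.9% and 10.6% of all genes, a share of higher calls near the background. By the adjusted p alone, 13 were higher and 6 lower, beside 35% and 35.2%. The 4 that returned act in the upper, middle and lower steps of the path. GPI (chr19:34359480-34402413), which isomerises glucose 6-phosphate, was at 389, 394 and 374 CPM in 2D, 1619, 1502 and 1517 in 3D cells, 1307, 1090.2 and 1169 with vehicle and 279.7, 285 and 253 with DOX. The DOX libraries were below those of 2D cells, and DOX minus 2D was -0.50 on the log2 scale (95% interval -0.62 to -0.38), within the margin of a return. PGK1, the first ATP-making step, was at 330.0, 369.7 and 363 CPM in 2D, 1097, 913 and 997 with vehicle and 321, 351 and 293 with DOX, groups of 2D and DOX that overlapped (-0.14, 95% interval -0.28 to -0.00). With vehicle it lay only just past the size limit of a call, and it was no longer a feature in 4 of 23 alternative settings, with library size alone, with the replicate block, without 2D replicate 1 and without vehicle replicate 1. GAPDH, which oxidises glyceraldehyde 3-phosphate, was at 1194, 1261 and 1144, 8437, 6966 and 6641 and 1409, 1571 and 1303 CPM, and has 65 annotated pseudogenes. ALDOA, the aldolase, was at 5.06, 5.88 and 4.16, 35.8, 32.1 and 27.7 and 8.66, 8.96 and 7.05 CPM, and was in the returned class in 14 of 23 alternative settings. It shares 42.8% of its exon bases with an overlapping gene, so its low counts are uncertain.

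The glucose entry steps did not return fully. SLC2A1, which encodes GLUT1, was at 18.4, 17.6 and 15.8 CPM in 2D, 150.1, 146 and 146 in 3D cells, 176, 124 and 140.3 with vehicle and 42.6, 44.2 and 37.8 with DOX. The DOX libraries lay between the 2 levels and overlapped neither (1.27 against 2D, standard error 0.09, adjusted p = 3.76e-11, edgeR's quasi-likelihood test). HK2, the hexokinase that traps glucose, also lay in between, at 32.8, 27.7 and 29.5 CPM in 2D, 381, 282 and 299.5 with vehicle and 74.6, 80.5 and 69.3 with DOX (1.32 against 2D). SLC2A3, which encodes the high-affinity transporter GLUT3, was at 0.493, 0.455 and 0.59 CPM in 2D and 111, 84.7 and 98.5 with vehicle, and with DOX at 1.01, 2.68 and 1.51. It is in the remaining class at 1.80 against 2D (standard error 0.29) although DOX minus vehicle was -5.76 on the log2 scale, and it lay in between without DOX replicate 2. SLC16A3, which encodes the lactate exporter MCT4, remained, with 0.47, 0.682 and 1.34 CPM in 2D, 17.8, 12.6 and 15.4 with vehicle and 10, 9.56 and 7.74 with DOX. ALDOC, the brain aldolase isoform, remained at 36.4 ± 2.21 CPM against 11.2 ± 0.75 in 2D and 259.9 ± 35.3 with vehicle.

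PGAM1 (chr10:97426191-97433444), the phosphoglycerate mutase of the lower path, went below the 2D level without having been a mammosphere feature. It was at 249.98, 263 and 254 CPM in 2D, 344, 331 and 357 in 3D cells, 328, 299 and 268 with vehicle and 50.7, 52.3 and 48.5 with DOX. All 9 other libraries stood above the 3 DOX ones by a wide gap. The log2 fold change was -2.34 against 2D (standard error 0.06, adjusted p = 1.67e-19) and -2.56 against vehicle (adjusted p = 6.37e-19, edgeR's quasi-likelihood test). PGAM1 has 13 annotated pseudogenes with which it can share reads.

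Hypoxia targets outside glycolysis showed all outcomes. Of 25 genes, 14 were features, all higher in mammospheres, of which 5 remained, 4 returned, 1 overshot and 4 lay in between, and 2 further genes were new departures below 2D. Over all higher features 84.9% remained, 2.88% returned, 0.491% overshot and 11.7% lay in between. New departures below 2D were 0.369% of all genes. The list median was 2.32 with vehicle, 2.21 in 3D and 0.26 with DOX, and all 25 were lower with DOX than with vehicle at an adjusted p below 0.1, as were 28.1% of all genes. With DOX against 2D, 5 were called higher and 8 lower, beside 12.9% and 10.6% of all genes. ADM and ANGPTL4, which encode the vasodilator adrenomedullin and a lipase inhibitor, remained. ADM was at 3.9, 3.04 and 2.18 CPM in 2D, 170.1, 129 and 132 with vehicle and 59, 62.9 and 56.7 with DOX. ANGPTL4 was at 5.71, 5.67 and 4.47, 159.5, 122 and 132 and 94.2, 104 and 90.6 CPM. For both, every DOX library stood far above 2D. NDRG1, a stress-induced gene, remained at 27.7 ± 5.67 CPM against 6.14 ± 1.54 in 2D, with 512 ± 116 with vehicle and a DOX minus vehicle log2 difference of -4.20. VEGFA, the angiogenic growth factor, lay in between at 155, 178 and 165 CPM with DOX, with 57.4, 59.4 and 63.9 in 2D and 626, 488 and 520.1 with vehicle. It did so in 18 of 23 alternative settings and was in the remaining class in the other 5, among them without 2D replicate 3 and without DOX replicate 1. MXI1, a MYC antagonist, BNIP3L, a mitophagy receptor, ERO1A, an oxidase of the endoplasmic reticulum, and ANKRD37 returned. ERO1A was at 181, 166 and 181 CPM in 2D, 982, 777 and 881 with vehicle and 194, 211 and 195 with DOX, and MXI1 at 12.2, 13.9 and 13.4, 102, 95 and 84.8 and 20.1, 24.5 and 21.7. MXI1 returned in 20 of 23 alternative settings and lay in between without DOX replicate 1.

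CA9 (chr9:35673928-35681159), the tumour-associated carbonic anhydrase IX, was the overshoot. It had 0.538, 1.19 and 0.763 CPM in 2D, 46.2, 43.8 and 43.1 in 3D cells, 49.9, 33.6 and 37.2 with vehicle and 0.0354, 0.278 and 0.0457 with DOX. The DOX libraries lay below every 2D library, 2 of them with 2 counts each, and far below every other mammosphere library. The log2 fold change was -2.60 against 2D (standard error 0.45, adjusted p = 2.06e-05) and -8.16 against vehicle (standard error 0.26, adjusted p = 4.76e-17, edgeR's quasi-likelihood test). BNIP3, another mitophagy receptor, went from 358, 289.9 and 293 CPM with vehicle to 26.5, 30.5 and 26.4 with DOX, below 57.5, 58.2 and 61.2 in 2D, without reaching the call against 2D (-1.08). The new departures were the collagen prolyl hydroxylase P4HA1, at 162, 176 and 197 CPM in 2D, 215, 199 and 194 with vehicle and 36.6, 46.6 and 36.9 with DOX, and LOX, which encodes the collagen cross-linking lysyl oxidase, at 1769, 1642 and 1816, 1494, 1190.2 and 1329 and 375, 435 and 344. P4HA2, a second prolyl hydroxylase, was at -1.24 against 2D with vehicle and at -3.16 with DOX.

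The 250 bases before the annotated start of 4 hypoxia targets of different outcome are shown because ACGTG, a form of the HIF core, is a sequence this gene group is known for. They are from RefSeq on GRCh38.p14, 5′ to 3′ on the gene's strand, with ACGTG or its reverse complement in capitals.
CA9 (chr9:35673678-35673927, plus strand): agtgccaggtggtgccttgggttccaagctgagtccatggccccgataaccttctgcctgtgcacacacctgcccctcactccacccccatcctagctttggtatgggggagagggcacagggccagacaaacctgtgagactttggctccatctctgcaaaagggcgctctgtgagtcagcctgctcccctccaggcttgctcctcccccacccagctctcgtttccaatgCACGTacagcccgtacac
MXI1 (chr10:110207355-110207604, plus strand): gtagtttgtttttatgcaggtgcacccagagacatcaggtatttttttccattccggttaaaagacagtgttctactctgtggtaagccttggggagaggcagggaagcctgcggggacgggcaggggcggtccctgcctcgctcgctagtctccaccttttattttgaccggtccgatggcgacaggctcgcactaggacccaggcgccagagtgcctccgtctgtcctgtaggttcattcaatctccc
ADM (chr11:10304823-10305072, plus strand): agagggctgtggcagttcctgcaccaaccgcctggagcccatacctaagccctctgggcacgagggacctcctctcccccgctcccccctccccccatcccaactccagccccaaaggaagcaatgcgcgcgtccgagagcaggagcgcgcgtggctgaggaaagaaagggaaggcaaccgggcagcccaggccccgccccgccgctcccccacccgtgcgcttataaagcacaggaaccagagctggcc
P4HA1 (chr10:73096867-73097116, minus strand): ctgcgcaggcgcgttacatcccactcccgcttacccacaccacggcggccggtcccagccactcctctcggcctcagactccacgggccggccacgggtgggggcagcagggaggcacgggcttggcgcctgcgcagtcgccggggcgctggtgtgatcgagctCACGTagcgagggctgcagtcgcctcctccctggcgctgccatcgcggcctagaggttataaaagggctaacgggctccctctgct
The CA9 window holds 1 match to ACGTG, close to the start, and that of P4HA1 also 1, while those of MXI1 (returned) and ADM (remained) hold none. The P4HA1 start used lies 108 bases inside the gene as GENCODE annotates it, and the other 3 starts coincide. Over both strands, ACGTG occurred in 5101 of the 27305 promoters of the table (18.7%), in 8 of 19 for the glycolysis list (42.1%) and in 12 of 22 for the hypoxia list (54.5%). The longer E-box CACGTG, which contains it, occurred in 6.49%, 15.8% and 18.2%. Where a gene had several starts the first of the table was used. Only ACGTG and CACGTG were searched, so other forms of the core, such as the GCGTG in the ADM window, were not counted. These counts describe letters in 1 window per gene and do not show binding.

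**Figure D3:**
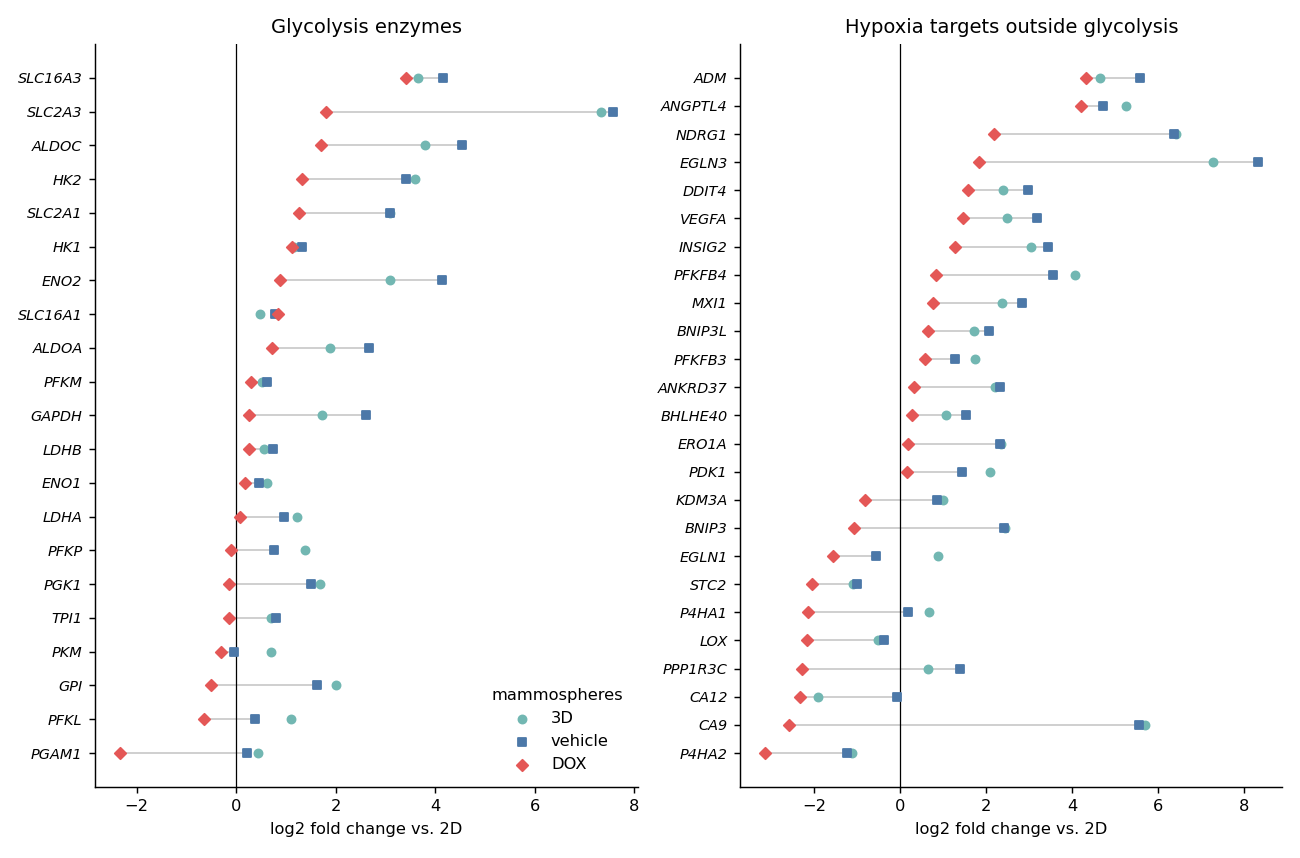
Log2 fold change against 2D cells (x axis) of each gene of the glycolysis (left) and hypoxia (right) lists in 3D cells (circles), vehicle-treated (squares) and DOX-treated (diamonds) tet-MUC1shRNA mammospheres, from fits over 3 libraries per group. The DOX points lie nearer to the zero line than the vehicle points for most genes, with PGAM1 at -2.34 and CA9 at -2.60 on the far side. P4HA2, below 2D in all 3 groups, was furthest from it with DOX at -3.16.

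mtDNA-encoded respiratory chain transcripts moved in the opposite way. Their share of all counts was 5.12 ± 0.04% in 2D cells, 2.46 ± 0.19% in 3D cells, 2.7 ± 0.09% with vehicle and 6.51 ± 0.19% with DOX (mean ± SD, n = 3). All 13 genes were higher with DOX than with vehicle at an adjusted p below 0.1, as were 26.5% of all genes. Against 2D, 7 were higher and 5 lower with DOX by the adjusted p alone, beside 35% and 35.2% of all genes, and none was called at the size threshold. The list median was -1.09 with vehicle, -0.87 in 3D cells and 0.25 with DOX. MT-CO3, a cytochrome c oxidase subunit, was at 7395, 7457 and 7268 CPM in 2D, 5152, 5036 and 4633 with vehicle and 13211, 12510.0 and 12581 with DOX. MT-ND3, a complex I subunit, reached 1316, 1369.7 and 1125 CPM with DOX from 422, 483 and 509 in 2D (1.43, adjusted p = 1.37e-14), while MT-ND6, encoded on the other strand, stayed below 2D at 435, 433 and 434 against 843, 839 and 858 CPM (-0.96, adjusted p = 5.23e-13, edgeR's quasi-likelihood test). Change was thus unequal among the 13 genes.

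Nuclear genes of the respiratory chain changed less. Among 78, the median against 2D was 0.04 with vehicle, 0.27 in 3D cells and -0.05 with DOX, the last of which turned sign in 3 of the alternative settings. At an adjusted p below 0.1, 46 were higher and 7 lower in 3D cells than in 2D, 25 higher and 31 lower with DOX than in 2D, and 12 higher and 40 lower with DOX than with vehicle. Of all genes, 35% were higher and 35.2% lower with DOX than in 2D, so these counts against 2D were near the background, and 26.5% were higher and 28.1% lower with DOX than with vehicle. Beside 10.6% of all genes called lower, 2 of the 78 were called with DOX against 2D, both lower. These were ATP5ME, a subunit of ATP synthase, at 6.54, 7.04 and 7.49 CPM in 2D, 2.47, 2.64 and 2.03 with vehicle, 7.78, 7.28 and 8.33 in 3D cells and 1.79, 1.36 and 1.3 with DOX, and UQCRQ, a complex III subunit, at 28.3, 34.9 and 38.8, 12.7, 14.6 and 12.7, 33.9, 28.9 and 34.3 and 10.5, 9.95 and 9.57. Both were already lower with vehicle and near 2D in 3D cells. TFAM, which packages and transcribes mtDNA, was at 108, 104 and 109 CPM in 2D, 93.3, 99.7 and 93.3 with vehicle, 140.0, 144 and 149.7 in 3D cells and 105, 104 and 102 with DOX (-0.04, 95% interval -0.14 to 0.06). TFB1M, a mitochondrial rRNA methyltransferase, was the 1 of 9 mtDNA transcription genes that was a feature and remained, at 30 ± 1.13 CPM with DOX against 10.5 ± 0.816 in 2D, 33 ± 0.0976 with vehicle and 32.2 ± 0.567 in 3D cells. Without 2D replicate 1 or without 2D replicate 2 it lay in between.

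**Figure D4:**
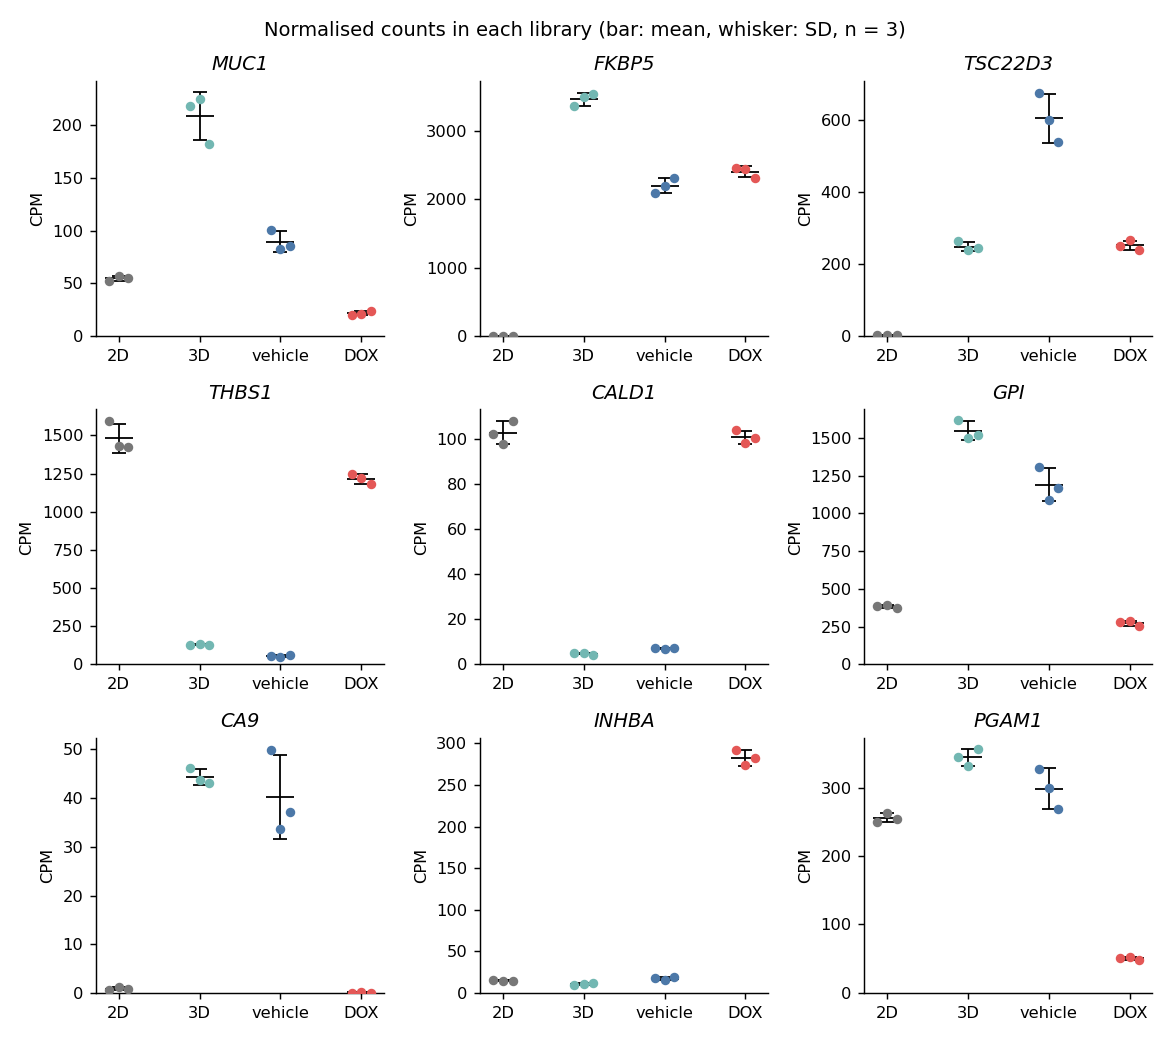
CPM (y axis, linear, own scale per panel) of 9 genes in the 12 libraries, with points for libraries and lines and bars for mean and SD of 3. FKBP5 and TSC22D3 stay high with DOX, THBS1 and CALD1 return to the 2D level, GPI returns, CA9 falls below 2D, INHBA rises in DOX-treated mammospheres alone and PGAM1 is lowest there.

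4 of the 7 overshoots among higher features, CA9, PPFIA4, PLXND1 and NRN1, reached 5 CPM in at least 1 group. PPFIA4, a liprin scaffold protein, was at 2.93, 2.31 and 2.27 CPM in 2D, 16.9, 10.8 and 14.3 with vehicle and 0.318, 0.264 and 0.388 with DOX. PLXND1, a semaphorin receptor, was at 4.55, 6.74 and 6.4, 19.6, 15.3 and 16.8 and 1.49, 2.05 and 1.99 CPM. In both, DOX libraries lay below all 2D libraries (-2.97 and -1.68 against 2D, adjusted p = 3.86e-11 and 7.8e-10, edgeR's quasi-likelihood test). PPFIA4 was an overshoot in 23 of 23 alternative settings and PLXND1 in 20, not with library size alone, without 2D replicate 1 or without vehicle replicate 1. NRN1, the neurite growth factor neuritin, was at 12.4, 14 and 13.6, 88.2, 67.2 and 66.6 and 4.38, 5.33 and 4.2 CPM and only just past the threshold (-1.51), which it kept in 9 of 23 alternative settings. The other 3 (PTPRN, CASP14 and BARX1) and all 12 overshoots among the lower features were below 5 CPM in every group mean. They include MST1R, the receptor tyrosine kinase RON, at 0.291, 0.595 and 0.486 CPM in 2D, 0.104, 0.0466 and 0.0772 with vehicle and 2.44, 2.73 and 2.85 with DOX, HTR1D, a serotonin receptor, at 0.493, 0.35 and 0.624, 0, 0 and 0.154 and 3.78, 3.36 and 3.24, and TRPV4, a calcium channel, with 0.112, 0.175 and 0.0694 CPM in 2D, no count in the other mammospheres and 1.2, 1.11 and 1 with DOX. At these levels the counts per library are few. BARX1 was an overshoot in 14 of 23 alternative settings, and MAP3K9, among the lower features, in 7.

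BMP2, TSPAN1, INHBA and ITGA2 had the 4 largest rises with DOX against 2D among the new departures that reached 5 CPM. INHBA (chr7:41667168-41705834), the subunit of activin A, was at 15.3, 14.9 and 14.8 CPM in 2D, 9.76, 11.2 and 11.9 in 3D cells, 18, 15.3 and 18.7 with vehicle and 292, 274 and 282 with DOX. The 9 other libraries lay below 20 CPM. DOX minus 2D was 4.24 (standard error 0.08, adjusted p = 1.19e-22, edgeR's quasi-likelihood test). BMP2, a bone morphogenetic protein, was at 1.34, 1.82 and 1.32 CPM in 2D, 3.14, 2.73 and 2.86 in 3D cells, 2.13, 2.8 and 2.32 with vehicle and 42.3, 37.4 and 38.9 with DOX. It was in this class in 19 of 23 alternative settings, and not without 2D replicate 2 or without 3D replicate 2. ITGA2, the collagen-binding integrin chain, was at 0.829, 0.455 and 0.798 CPM in 2D, 0.779, 0.373 and 0.772 with vehicle and 12.7, 12.46 and 13 with DOX, and TSPAN1, a tetraspanin, at 0.358, 0.77 and 1.06, 0.935, 0.793 and 0.502 and 15.3, 15.9 and 15. DEPP1, a FOXO-regulated autophagy gene, went the other way, at 17.7, 22.1 and 19.1 CPM in 2D, 22.1, 12.55 and 15.7 with vehicle and 0.53, 1.72 and 0.594 with DOX (-4.27 against 2D, adjusted p = 6.8e-13, edgeR's quasi-likelihood test). VWA1, a matrix protein, SLC27A3, a fatty acid transporter, and ATP8B3, a flippase, were the next largest falls, at -3.15, -3.02 and -2.98 against 2D. ATP8B3 was already at -0.99 against 2D in 3D cells and was a new departure in 17 of 23 alternative settings, lost among others without either of 2D replicates 1 and 2 or of 3D replicates 1 and 2. In addition, 21 protein-coding genes were below 0.1 CPM in every 2D library and above 5 in the 3 DOX libraries but not in all 9 mammosphere libraries. Of these, 19 were features called in vehicle-treated and 3D cells too and are in the remaining class, MMP3 and KRT5 among them, and MUCL1 and KRT6A are in no class. They include MUCL1, the small breast epithelial mucin, which had no count in 2D cells, 0.364, 0.187 and 0.309 CPM with vehicle and 74, 71.5 and 67 with DOX (at least 1260-fold above 2D), MMP3, the matrix metalloproteinase stromelysin 1, with 14.1, 10.9 and 13.3 CPM (at least 222-fold above 2D) against 0.0519, 0.14 and 0.347 with vehicle, and the basal keratins KRT5 and KRT6A.

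Integrins and laminins held 5 new departures among 20 genes, 3 higher and 2 lower, beside 0.746% and 0.369% of all genes. Against 2D, 8 were called higher and 2 lower with DOX, beside 12.9% and 10.6%, and the median was 0.21 with vehicle, 0.15 in 3D cells and 1.26 with DOX. ITGB5, the vitronectin-binding beta chain, was at 26.5, 31.4 and 27.5 CPM in 2D, 39.8, 33.5 and 33.3 with vehicle and 193, 193 and 183 with DOX. ITGA4 and LAMB1 were lower, the first from 68.2 ± 4.78 CPM with vehicle to 17.7 ± 0.336, with 63.4 ± 2.59 in 2D, and the second from 253 ± 2.66 to 87.9 ± 4.74, with 289 ± 7.71 in 2D (mean ± SD, n = 3). LAMB1 was no new departure without DOX replicate 3. LAMB3, a chain of the epithelial basement membrane laminin 332, was at 0.582, 0.595 and 0.52 CPM in 2D, 5.84, 5.95 and 5.64 with vehicle and 40.4, 38.5 and 37.1 with DOX. LAMA4, of endothelial and mesenchymal laminins, was a feature that remained, at 93.4 ± 2.39 CPM against 1.26 ± 0.445 in 2D and 107 ± 6.5 with vehicle.

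Epithelial and mesenchymal genes did not shift together against 2D. Of 15 marker proteins tested, 6 were called higher and 4 lower with DOX against 2D, beside 12.9% and 10.6% of all genes, and of 7 features 6 remained, near the 78% over all features. Against vehicle most rose, with 8 called higher and 1 lower with DOX, beside 6.24% and 3.27% of all genes. At an adjusted p below 0.1, 10 were higher and 2 lower than with vehicle, beside 26.5% and 28.1%. VIM, which encodes vimentin, was at 1175, 1201 and 1196 CPM in 2D, 1070.0, 1066 and 1112 with vehicle and 1236, 1247 and 1171 with DOX, where 2D and DOX overlapped (0.03, 95% interval -0.06 to 0.12). CDH2, N-cadherin, remained lower at 74.2, 74.4 and 73.9 CPM against 448, 433 and 458, with 12.8, 11.4 and 11.1 with vehicle and 52.4, 52.1 and 50.4 in 3D cells. KRT5 was at 0, 0 and 0.0694 CPM in 2D, 26, 22.4 and 25 in 3D cells, 1.17, 1.61 and 0.811 with vehicle and 14.7, 16.4 and 14.6 with DOX, so that the DOX libraries lay between the vehicle and the 3D libraries. KRT6A was at 1.07, 1.09 and 1.13 CPM in 3D cells, 0.0779, 0.0933 and 0 with vehicle and 12.1, 10.5 and 8.38 with DOX, against 2 counts in 2D. Of the EMT transcription factors, PRRX1 remained high at 407 ± 19.4 CPM against 15.2 ± 2.15 in 2D and 427 ± 14.8 with vehicle, SNAI1 remained low at 2.09 ± 0.331 against 8.28 ± 1.31 and 1.37 ± 0.233, and ZEB2 was called lower at 59.2 ± 1.61 against 213 ± 14.2 in 2D and 166 ± 8.92 with vehicle. ZEB1 was at 94.8 ± 5.48 CPM in 2D, 319.6 ± 15 with vehicle and 119 ± 2.91 with DOX.

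Matrix metalloproteinases and their inhibitors held 6 features among 10 tested genes, and all 6 remained, 4 higher and 2 lower than in 2D, where 78% of all features did. Against vehicle 4 were higher and 4 lower with DOX at an adjusted p below 0.1, beside 26.5% and 28.1% of all genes, and 2 were called higher and 1 lower, beside 6.24% and 3.27%. TIMP3, a matrix-bound inhibitor, was at 4.39, 4.34 and 5.34 CPM in 2D, 202.6, 200.5 and 204 with vehicle and 202, 197 and 190.2 with DOX. Of 6 mucins tested, 3 were called higher and 1 lower with DOX against 2D, beside 12.9% and 10.6% of all genes.

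Stem cell markers gave no single direction either. Of 10 tested, 3 were called higher and 3 lower with DOX against 2D, beside 12.9% and 10.6% of all genes, and the median was -0.02 with vehicle and -0.94 with DOX. CD24, a surface protein low in breast cancer stem cells, was at 518, 580.4 and 611 CPM in 2D, 5.56, 4.18 and 4.67 with vehicle and 0.99, 1.89 and 1.6 with DOX, further from 2D after silencing (-1.66 against vehicle, adjusted p = 5.68e-09, edgeR's quasi-likelihood test). CD44, the hyaluronan receptor, was at 608 ± 15.1 CPM with DOX and 616 ± 11.7 with vehicle against 1597 ± 33.2 in 2D, and DOX minus vehicle was -0.02 (95% interval -0.11 to 0.07). ALDH1A3, a retinal dehydrogenase, remained at 24.7 ± 2.2 CPM against 3.58 ± 0.708 in 2D and 26 ± 0.694 with vehicle.

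Lipid synthesis genes moved part of the way back. Of 24 cholesterol genes, 21 were lower with DOX than with vehicle at an adjusted p below 0.1, beside 28.1% of all genes, with a median against 2D of 1.21 with vehicle, 1.08 in 3D cells and 0.29 with DOX. INSIG1, the sterol sensor that holds back SREBP processing, returned, with 308, 314 and 337 CPM in 2D, 2130.3, 1915 and 1867 with vehicle and 528, 532 and 496 with DOX. CYP51A1, the lanosterol demethylase, remained at 8.95 ± 0.421 CPM against 2.56 ± 0.141 in 2D and 15 ± 1.48 with vehicle, and 68.2% of its exon bases overlap another gene. Of 10 fatty acid genes the median was 1.27 with vehicle and 0.25 with DOX. FASN, fatty acid synthase, and ACSS2, which makes acetyl-CoA from acetate, remained. FASN was at 504, 518 and 475 CPM in 2D, 3473, 3448 and 3208 with vehicle and 1719, 1658 and 1679 with DOX, and ACSS2 at 24.6, 26.1 and 27.6, 401, 407 and 380.1 and 211, 206 and 196.

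The 22 mitosis genes held no feature, and none was called in 3D cells. They were lower with DOX than in 2D for 20 of 22 at an adjusted p below 0.1, beside 35.2% of all genes, and 5 were called lower, beside 10.6%. Among these was MKI67, the Ki-67 antigen, at 832, 773 and 755 CPM in 2D, 199, 209 and 196 with vehicle, 218, 214 and 232 with DOX and 533, 599 and 484 in 3D cells. CENPE and CENPF, kinetochore proteins, were at -2.27 and -2.10 against 2D with DOX and at -2.41 and -2.48 with vehicle. Of 15 endoplasmic reticulum chaperones, 11 were lower with DOX than in 2D by adjusted p and 2 were called lower, beside the same shares of all genes. HSP90B1, the chaperone GRP94, was at 1287, 1426 and 1547 CPM in 2D, 600.4, 576 and 553 with vehicle and 262, 257 and 245 with DOX. The NRF2 target list held 5 features among 12 tested genes, and of these the aldo-keto reductases AKR1C1, AKR1C2 and AKR1C3 remained high, AKR1C2 from no count in 2D to 29.3, 30.2 and 26.4 CPM with DOX (at least 512-fold) and 31.3, 29.9 and 30.6 with vehicle, and these paralogs can share reads. DNA replication genes had medians against 2D of -0.4 with vehicle and -0.17 with DOX. With DOX, 1 of the 26 was called in each direction, beside 12.9% of all genes higher and 10.6% lower. Ribosome biogenesis genes had medians of 0.36 and 0.41 and 2 of 20 called, both higher, near the 12.9% of all genes. In the ATF4 stress list of 18, 15 genes were lower with DOX than with vehicle at an adjusted p below 0.1, beside 28.1% of all genes. Against 2D, 1 was called higher and 3 lower with DOX, beside 12.9% and 10.6% of all genes. In the lysosomal list 2 of 18 genes were called against 2D, both higher, near the 12.9% of all genes. NPC1, a cholesterol exporter, was at 93.7 ± 2.88 CPM in 2D, 554 ± 20.7 with vehicle and 676 ± 9.89 with DOX, and CTSL, cathepsin L, at 325 ± 39, 2993 ± 113 and 1578 ± 72.5.

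**Figure D5:**
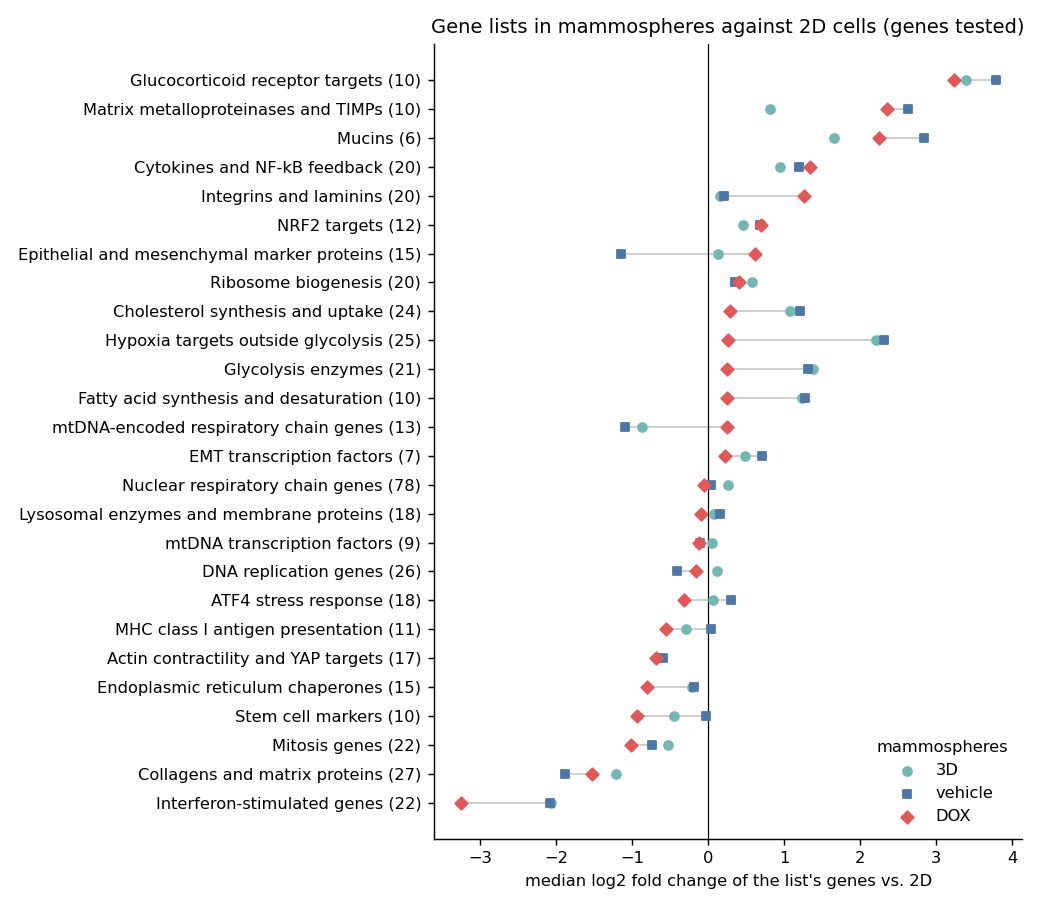
Median log2 fold change against 2D cells (x axis) of 26 gene lists in 3D cells (circles), vehicle-treated (squares) and DOX-treated (diamonds) mammospheres, with the number of genes tested in parentheses. The glycolysis, hypoxia and lipid lists move from above 1 to between 0.25 and 0.29 with DOX, the glucocorticoid list stays above 3, and the interferon list lies lowest at -3.25.

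Markers of other cell types were mostly low, and the epithelial and adipocyte sums were higher with DOX than in 2D. The 10 markers of breast and mammary epithelium summed to 42.9 to 47.2 CPM in 2D, 42.9 to 50.4 with vehicle, 76.3 to 83.8 in 3D cells and 106 to 110.7 with DOX. Of the 7 tested, 5 were called higher and 1 lower with DOX than in 2D, beside 12.9% and 10.6% of all genes. ERBB2 and KRT7 were the main contributors, but ERBB2 was lower with DOX, at 19.4, 20.7 and 23 CPM against 33.4, 37.1 and 36.8 in 2D. CDH1 was also lower, at 0.23, 0.291 and 0.411 CPM against 1.5, 1.52 and 1.28. KRT7, a keratin of simple epithelium, was at 7.16 ± 1.1 CPM in 2D, 22 ± 2.34 with vehicle and 82.9 ± 3.15 with DOX. EPCAM had at most 0.125 CPM and KRT19 at most 0.104 in any library, and KRT19 had no count in any mammosphere library. ESR1, which encodes the oestrogen receptor, had no count in 2D cells, below the floor of 0.052 to 0.0672 CPM per library, and 0.46 to 0.638 CPM with DOX. The 6 immune markers summed to 1.11 to 1.82 CPM in 2D and 1.05 to 1.57 with DOX, but single members moved. With DOX against 2D, 3 of the 4 tested were called higher (CD68, CD79A and CD14) and 1 lower, beside 12.9% and 10.6% of all genes. The lower one was PTPRC, the pan-leukocyte marker CD45, at 1.5, 1.26 and 1.04 CPM in 2D and 0.141, 0.0555 and 0.0457 with DOX. The 5 endothelial ones summed to 0.0448 to 0.208 CPM in 2D and 4.02 to 4.49 with DOX, mainly PECAM1 and KDR, with CDH5 at 0 in both groups. For the adipocyte markers the sums were 0.112 to 0.225 CPM in 2D and 15.1 to 17.2 with DOX, nearly all CIDEC. FABP4, which adipocytes and some endothelial cells make and which is in neither list, had 2 counts in 2D cells, 28.9, 25.7 and 27.2 CPM with vehicle, 58, 56.7 and 58.8 in 3D cells and 90.5, 103 and 89 with DOX. The adipocyte sum was 8.52 to 9.13 CPM with vehicle and 10.9 to 11.9 in 3D cells, and the endothelial one 4.11 to 4.39 and 6.07 to 7.3. The part of these markers in the results above was not tested.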

How the data were processed

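RNA from triplicate cultures was sequenced by the authors as stranded, poly(A)-selected paired-end libraries and aligned to GRCh38 with STAR. The paper names version 2.7.9a and the submitters' processing notes 2.7.3a. Read counts per gene were made by the authors with featureCounts and deposited as raw counts, 1 table for all 21 libraries. The annotation release, strand setting and treatment of multimapping reads are not given in the sources used here. Of 42339 genes listed, 42252 were given symbols and positions from GENCODE v44. Blank cells, 6498 genes in the 2D and 3D columns and 4952 in the tet-MUC1shRNA columns, were read as 0.

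The 12 libraries of 4 groups were fitted together with edgeR 4.0.16 in R 4.3.3 (TMM scaling, filterByExpr, quasi-likelihood test, Benjamini-Hochberg adjustment over 21434 genes; biological coefficient of variation 0.0797). Replicates of a group differed by more than sampling noise. On simulated data with known classes, 99% to 100% of genes changed by 2 on the log2 scale were put in the right class. Only well-counted genes were changed and their spread was that of the fit. Low counts and changes near the limit of a call are therefore not covered. Named genes were the 4 largest changes per class and direction among protein-coding genes reaching 5 CPM, the 3 largest per gene list, and members needed to describe a pathway's roles. The members, classes and lists were chosen with earlier results of these data known. Fold bounds for genes without counts used a floor of 3 counts per library, which covers counting error only, as do the counting intervals. Many low counts were even numbers, such as those of KDR in every library. If both reads of a pair were counted, these intervals are too narrow, which was not tested. Gene overlap and pseudogene numbers are from the annotation. Alternatives were DESeq2, other scalings, filters and thresholds, other sets of libraries, and a replicate block.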

Additional observations from a re-analysis of the deposited data

How the results depend on the processing

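Called genes against 2D ran, when 1 library was left out, from 5277 to 5531 with DOX, from 5166 to 5453 with vehicle and from 3834 to 4101 in 3D cells, and from 2084 to 2263 between DOX and vehicle. Under these settings remaining features numbered 2205 to 2311, returned ones 79 to 97, overshoots 14 to 25, those in between 502 to 585 and new departures 252 to 298; more genes were tested there, since the filter asks for fewer libraries. DESeq2, other size factors, scaling without mtDNA genes, no filter, all 21 libraries in 1 fit and an adjusted p below 0.05 moved none of these counts by over 1.5 times. With library size alone the median of all genes moved from 0.01 to 0.11 on the log2 scale.

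A minimum of 10 counts in every library, which leaves fewer genes, gave 2161 called genes for DOX against 2D, 659 for DOX against vehicle, 2147 for vehicle against 2D and 1479 for 3D against 2D, with 837 remaining, 2 overshooting and 176 in-between features and 107 new departures. A fold change limit of 1.5, not on the log2 scale, gave 10758, 6336, 10658 and 8146 called genes, with 4722 remaining, 734 returned and 115 overshooting features and 1431 new departures. Fitting each contrast on its own 6 libraries gave 1399 remaining, 8 overshooting and 299 in-between features and 138 new departures. Features defined by vehicle against 2D alone gave 3484 remaining, 215 returned, 34 overshooting and 1322 in between, and by 3D against 2D alone 170 returned, 67 overshooting and 1043 in between. A margin of 1.5-fold left 32 returned features. The number of overshoots and returns thus depended on the limits, and overshoots were few in every setting beside the remaining class.

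DOX minus 2D changed sign for genes near 0. That of CALD1 was 0.0723 with library size alone, 0.0039 without a filter, 0.0305 with the 10-count minimum and 2.47e-06 on its own 6 libraries, and ran from -0.0658 to 0.00642 with 1 library left out. That of TFAM was 0.0569 with library size alone and 0.0155 with the 10-count minimum, and that of CAMK2N1, a kinase inhibitor that returned, ran from -0.0999 to 0.194 with 1 library left out. The cause of these moves was not tested. With the replicate number as a replicate block, 5060 genes were called for DOX against 2D, and 2187 features remained, 87 returned and 18 overshot; same-numbered libraries did not deviate together (correlations from -0.113 to 0.0489), and a library correlated best with its own number in 11 of 36 comparisons with another group, so the libraries share only a number.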
